A study of Rattus norvegicus with 12 samples.

Results

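The Cyp1 family of the rat, the cytochrome P450 genes Cyp1a1, Cyp1a2 and Cyp1b1, was followed in liver RNA of rats that drank green tea or water. The 3 genes were taken by their Ensembl IDs (ENSRNOG00000019500 for Cyp1a1, ENSRNOG00000016173 for Cyp1a2 and ENSRNOG00000040287 for Cyp1b1), and all 3 were among the 34194 IDs of the expression table. The table carries no symbols, so the pairing of these IDs with their symbols was given with the list of genes and was not checked against an annotation here.

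RNA sequencing was performed on livers of male Wistar rats at week 20, with 3 libraries in each of 4 groups, to which 12 rats each had been assigned at the start. Fewer rats were left in the NDEA and NDEA+FYT groups at the end. Control rats were injected with saline from week 2 to week 9 and drank water. NDEA rats were injected intraperitoneally with 25 mg/kg N-nitrosodiethylamine (NDEA), a nitrosamine that induces liver tumors, 2 times a week over the same weeks and drank water. NDEA+FYT rats received the same NDEA and drank an infusion of the common green tea Fuyun6 for 20 weeks, and NDEA+CFT-1 rats received the same NDEA and drank an infusion of CFT-1, a tea variety rich in epigallocatechin-3-gallate (EGCG), for 20 weeks. All 6 libraries of tea drinkers came from NDEA-injected rats, while 3 of the 6 libraries of water drinkers came from saline-injected rats. Tea against all water drinkers therefore mixes the drink with the injection, and tea against NDEA alone does not. The NDEA livers were bulk tissue from a tumor model, in which fewer cells of a type and less RNA per cell cannot be told apart. Each library is 1 liver sample, and the labels used here name no sequencing batch.

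Enzymes of the CYP1 family oxidize aromatic compounds such as polycyclic hydrocarbons and heterocyclic amines. Their genes are the textbook targets of the aryl hydrocarbon receptor (AhR), which binds such compounds, pairs with its partner ARNT and acts through DNA elements with the core letters GCGTG. CYP1A2 is a constitutive enzyme of hepatocytes around the central vein and carries out the demethylation of caffeine, CYP1A1 is low in uninduced liver and rises with AhR ligands, and CYP1B1 is mainly an enzyme of tissues other than the liver parenchyma.

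Values are FPKM as deposited, that is fragments mapped to a gene, scaled by its length and by the number of fragments mapped in the library. The fragments behind each value were rebuilt from the steps in the table, which gave 15495351 to 25718721 fragments per library. Intervals given for a single library are exact Poisson intervals at 95% and cover counting error only. A second set of values was divided by median-of-ratios size factors, which ran from 0.765 in Control replicate 3 to 1.39 in NDEA replicate 1.

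The library of NDEA replicate 1 stood apart from the rest over all genes. Its mean correlation with the other libraries was 0.917 across genes, against 0.954 to 0.971 for the other 11 libraries, and it had the fewest fragments. The main differences, or ratios of means, as deposited are given with and without it. Scaled values, other treatments of low values and the residual spread of Cyp1a2 are given only with it.

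The bases just before the start given in a promoter table were searched for the core letters of AhR elements. Sequences from RefSeq (GRCr8) were matched there for 2 of the 3 genes, Cyp1a2 and Cyp1b1. The 250 bases before the Cyp1a2 start, at chr8:66978150-66978399 on the minus strand of GRCr8, are printed because Cyp1a2 carries nearly all Cyp1 RNA of these livers. Capitals mark the TATA box letters TATAAA, which lie 39 to 34 bases before the start. Searched on both strands, GCGTG and the longer AhR form TNGCGTG, which contains it, were not found in this window.
Cyp1a2: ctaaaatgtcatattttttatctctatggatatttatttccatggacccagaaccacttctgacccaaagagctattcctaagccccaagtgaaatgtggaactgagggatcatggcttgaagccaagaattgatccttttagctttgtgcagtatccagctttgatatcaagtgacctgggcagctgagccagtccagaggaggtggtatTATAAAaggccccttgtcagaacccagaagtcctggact

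The start of Cyp1b1 in the promoter table lies inside the span that the RefSeq gene list gives for the gene, so its window is not upstream of the outermost listed start. The 250 bases before the tabled Cyp1b1 start held GCGTG 2 times, once on each strand, and are shown as 29-base windows in which capitals mark the core. The upper window (chr6:21094472-21094500, GRCr8, plus strand) carries the core on the other strand, 81 to 77 bases before that start. The lower window (chr6:21094533-21094561, same strand) carries it 20 to 16 bases before that start and there also matches TNGCGTG.
Cyp1b1 upper: cgtcccgcccctCACGCcccaccccttaa
Cyp1b1 lower: agtagagggatgGCGTGtcgcctctgggg

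Such letters are common. Of 33469 rat promoter windows of the same length, 25.9% held GCGTG, 4.09% held TNGCGTG and 12.9% held TATAAA on either strand. A match is a description of the letters and not a bound site, and a window without one says nothing about elements farther away. The GC content was 44.0% in the Cyp1a2 window and 59.2% in the Cyp1b1 window. In the RefSeq gene list Cyp1a1 and Cyp1a2 are neighbours on chromosome 8.

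Cyp1a2 was by far the most abundant member. Between 97.9% and 99.95% of the summed Cyp1 FPKM of a library came from it, and it ranked between 189 and 881 among all IDs of a library. Cyp1a1 ranked between 8475 and 17266 and Cyp1b1 between 11355 and 19621, out of 17989 to 20385 IDs above 0. The FPKM of Cyp1a2 was 128 to 2614 times that of Cyp1a1 (median 502) and 52.5 to 12720 times that of Cyp1b1 (median 1624). Cyp1a1 lay above Cyp1b1 in 10 libraries and below it in NDEA replicate 1 and NDEA+CFT-1 replicate 3.

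**Figure D1:**
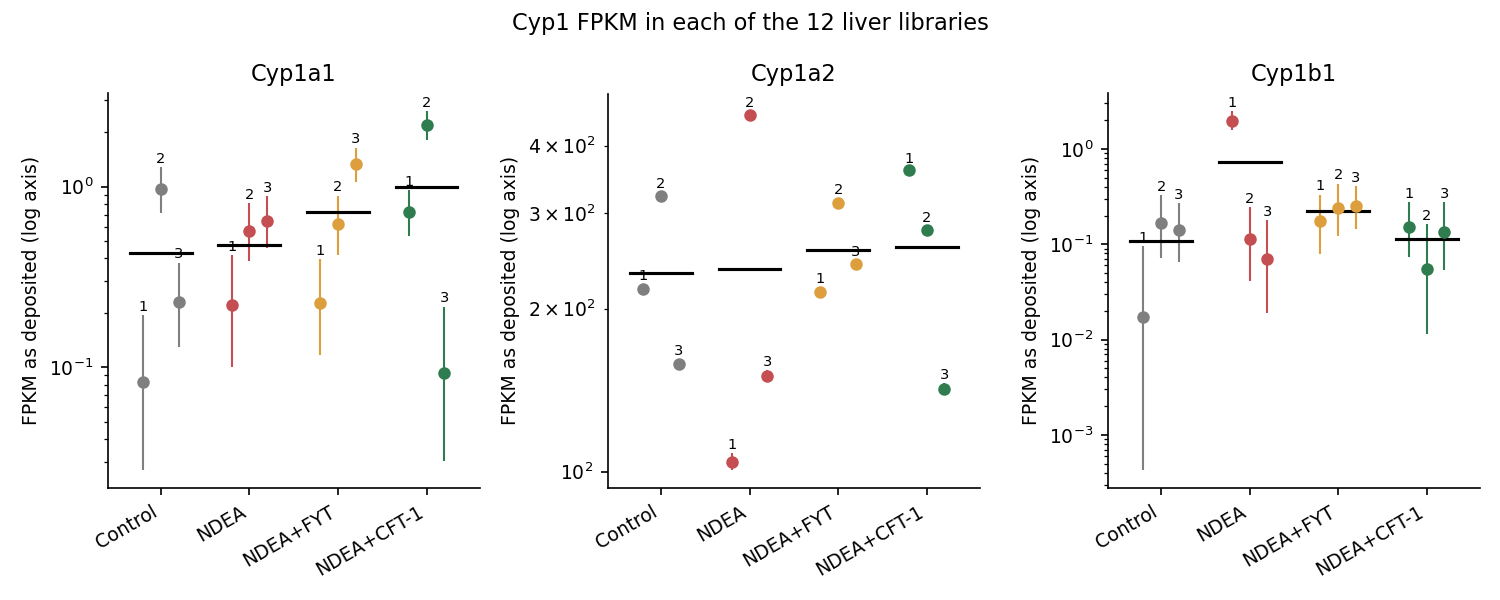
FPKM as deposited of Cyp1a1, Cyp1a2 and Cyp1b1 (log axis) in the 12 libraries by group. Points are libraries with their replicate number, vertical lines are exact Poisson 95% intervals for counting error, and horizontal bars are group means (n = 3). Cyp1a2 spans 104 to 456 FPKM with libraries of every group intermixed, and NDEA replicate 1 stands alone at the top of the Cyp1b1 panel at 1.99 FPKM.

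Cyp1a1, the inducible member, was detected in every library at a low level and with a wide spread inside each group. In Control livers it was 0.0833, 0.966 and 0.230 FPKM in replicates 1 to 3, which is 5, 48 and 15 fragments. In NDEA livers it was 0.220, 0.569 and 0.643 FPKM (9, 31 and 38 fragments). Water drinkers thus ran from 0.0833 to 0.966 FPKM, with Control livers at both ends. In NDEA+FYT livers Cyp1a1 was 0.227, 0.621 and 1.33 FPKM (12, 29 and 87 fragments). In NDEA+CFT-1 livers it was 0.722, 2.18 and 0.0928 FPKM (49, 122 and 5 fragments). Both libraries above 1 FPKM came from tea drinkers, 1 from each tea, and the other tea drinkers lay within the range of the water drinkers.

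The mean of Cyp1a1 was 0.426 ± 0.473 FPKM in Control, 0.477 ± 0.226 in NDEA, 0.726 ± 0.560 in NDEA+FYT and 1.00 ± 1.07 in NDEA+CFT-1 (SD, n = 3 each). The medians had the same order, at 0.230, 0.569, 0.621 and 0.722 FPKM, and libraries of neighbouring groups in this order overlapped. After median-of-ratios scaling the median of NDEA (0.586 FPKM) lay above that of NDEA+FYT (0.579 FPKM). The groups were wider than counting error. The coefficient of variation was 47.3% to 111%, against 13.1% to 21.0% from counting alone. In NDEA+CFT-1 the highest library had 23.5 times the FPKM of the lowest, and their Poisson intervals, 1.81 to 2.61 and 0.0301 to 0.217 FPKM, were far apart.

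Cyp1a2, the constitutive hepatocyte enzyme, was at 218, 323 and 158 FPKM in Control livers (9647, 11844 and 7598 fragments). In NDEA livers it was at 104, 456 and 150 FPKM (3148, 18341 and 6552 fragments). NDEA livers therefore held both the lowest and the highest value of the series, replicates 1 and 2. In NDEA+FYT livers Cyp1a2 was at 215, 314 and 242 FPKM (8384, 10825 and 11652 fragments). In NDEA+CFT-1 livers it was at 360, 279 and 142 FPKM (18023, 11515 and 5645 fragments). Every value of the tea drinkers lay inside the range of the water drinkers.

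Group means of Cyp1a2 lay close together, at 233 ± 83.6 FPKM in Control, 237 ± 191 in NDEA, 257 ± 51.3 in NDEA+FYT and 260 ± 110 in NDEA+CFT-1 (SD, n = 3 each). Their order is not firm, since the median of NDEA (150 FPKM) was the lowest of the 4 and that of Control (218 FPKM) came next. The tightest group was NDEA+FYT with a coefficient of variation of 20.0%, and the widest was NDEA with 80.7%. Counting error was 0.923% to 1.03%, so depth limited none of these values.

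Pooled over the 4 groups, of which NDEA was the widest and NDEA+FYT the tightest, Cyp1a2 varied between livers of a group more than most genes. Its residual SD in the fit of all 4 groups was 0.71 on the log2(FPKM + 1) scale, the 94th percentile of the 11854 genes that averaged 1 FPKM or more, whose median was 0.30. Among 659 genes with a mean of 100 to 500 FPKM it stood at the 95.6th percentile, with a median of 0.28. After median-of-ratios scaling the residual SD was 0.79, and the percentile among these genes was 96.7.

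Cyp1b1 was near the limit of detection in all but 1 library. It had 1, 8 and 9 fragments in Control livers (0.0171, 0.165 and 0.142 FPKM). In NDEA livers it had 79, 6 and 4 fragments (1.99, 0.113 and 0.0695 FPKM). The 79 fragments of NDEA replicate 1, with a Poisson interval of 1.57 to 2.48 FPKM, lay above the intervals of the other 11 libraries, none of which reached past 0.433 FPKM. In NDEA+FYT livers Cyp1b1 had 9, 11 and 16 fragments (0.175, 0.242 and 0.252 FPKM), and in NDEA+CFT-1 livers 10, 3 and 7 fragments (0.151, 0.0552 and 0.134 FPKM).

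The mean of Cyp1b1 was 0.108 ± 0.0797 FPKM in Control, 0.113 ± 0.0512 in NDEA+CFT-1, 0.223 ± 0.0419 in NDEA+FYT and 0.723 ± 1.09 in NDEA (SD, n = 3 each). Without replicate 1 the mean of NDEA was 0.0913 ± 0.0308 FPKM (n = 2), which turns NDEA from the highest group to the lowest. In NDEA+FYT the coefficient of variation, 18.8%, was smaller than the 28.9% that counting alone gives, and in NDEA+CFT-1 the 2 values were close, at 45.2% and 38.7%. Markers of the cell types that could hold Cyp1b1 were not analysed here, since the IDs carry no symbols, and the part of cell composition in the value of NDEA replicate 1 was not tested.

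Tea drinkers were compared with water drinkers in 1 fit of all 12 libraries with limma on log2(FPKM + 1). Across genes, 0 of 11854 passed an adjusted p of 0.05 (0% called), 395 had an unadjusted p under 0.05, and a fit of the rebuilt fragments with voom also called 0. Cyp1a2 was the only Cyp1 gene that averaged 1 FPKM or more. Cyp1a1 and Cyp1b1 were read from the same fit over all 24718 IDs above 0 in a library, where again 0% were called and 3.21% had an unadjusted p under 0.05. None of the 3 Cyp1 genes was in either set.

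Cyp1a1 had a mean of 0.863 ± 0.780 FPKM in tea drinkers and 0.452 ± 0.333 in water drinkers (SD, n = 6 each), a ratio of 1.91. On the log2(FPKM + 1) scale, which understates the change of low genes, the difference was 0.29 (95% interval -0.31 to 0.90), with an adjusted p of 0.968 by limma. The exact permutation test gave p = 0.312 (two-sided, 924 assignments, 6 against 6). Without NDEA+CFT-1 replicate 2, the library with the most Cyp1a1, the difference was 0.09, and without NDEA+CFT-1 replicate 3 it was 0.48. Cyp1a2 had a mean of 259 ± 76.9 FPKM in tea drinkers and 235 ± 132 in water drinkers, a ratio of 1.10. Its difference was 0.26 (-0.51 to 1.03), with an adjusted p of 1.00 by limma and p = 0.506 in the exact permutation test. As a fold of FPKM + 1 this interval runs from 0.701 to 2.04, so changes of that size in Cyp1a2 in either direction were not resolved by 6 livers against 6. Leaving out NDEA replicate 1 gave 0.04 for Cyp1a2, and leaving out NDEA replicate 2 gave 0.57.

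Cyp1b1 had a mean of 0.168 ± 0.0731 FPKM in tea drinkers and 0.416 ± 0.771 in water drinkers (SD, n = 6 each), a ratio of 0.405. The difference was -0.16 (-0.64 to 0.33), with an adjusted p of 0.968 by limma and p = 0.935 in the exact permutation test. The direction depended both on NDEA replicate 1 and on the treatment of low values. With all 12 libraries kept, the difference was 0.15 with voom on the rebuilt fragments (0.12 after scaling). It was 0.15 with no pseudocount in the exact permutation test (p = 0.866). Library weights in limma gave 0.08, and they gave NDEA replicate 1 the lowest weight of the 12 libraries (0.138). Without NDEA replicate 1 water drinkers averaged 0.101 ± 0.0592 FPKM (n = 5), the ratio was 1.66, and the difference was 0.09 by limma and 0.08 between plain means, with p = 0.134 in the exact permutation test. Without the same library the ratio of means was 1.73 for Cyp1a1 and 0.991 for Cyp1a2. Libraries of tea and water drinkers overlapped for all 3 genes, while 0.158% of all IDs had no overlap.

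Scaling between libraries turned no direction of a Cyp1 gene in tea against water, and none was called after it. Over all 24718 IDs, limma called 1 gene after scaling, which was no Cyp1 gene, against 0 as deposited. The median-of-ratios values of Cyp1a2 were 223, 323 and 206 FPKM in Control, 74.9, 469 and 149 in NDEA, 194, 293 and 229 in NDEA+FYT and 362, 344 and 147 in NDEA+CFT-1. Scaling widened the NDEA group, whose lowest library fell further, and narrowed Control. The difference between tea and water drinkers was then 0.31 for Cyp1a1, 0.27 for Cyp1a2 and -0.12 for Cyp1b1 in log2(FPKM + 1), with p = 0.335, 0.550 and 0.890 in the exact permutation test.

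In the other comparisons scaling moved genes as a whole, and differences of Cyp1 genes are to be read against that shift. The median difference of the 11854 genes went from 0.00 to 0.01 in tea minus water, from -0.10 to 0.03 in tea minus NDEA, from -0.16 to 0.05 in NDEA+CFT-1 minus NDEA, from -0.03 to 0.01 in NDEA+FYT minus NDEA, from -0.14 to 0.04 between the teas and from 0.20 to -0.04 in NDEA minus Control. Cyp1a2 then differed by 0.52 in tea minus NDEA and by -0.50 in NDEA minus Control, and Cyp1b1 by -0.29 and 0.35. In NDEA+CFT-1 minus NDEA the scaled difference of Cyp1a2 was 0.60, and between the teas that of Cyp1a1 was 0.23. Every sign of the 3 genes in the 6 comparisons was the same on both scales other than that of Cyp1a2 between the teas.

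**Figure D2:**
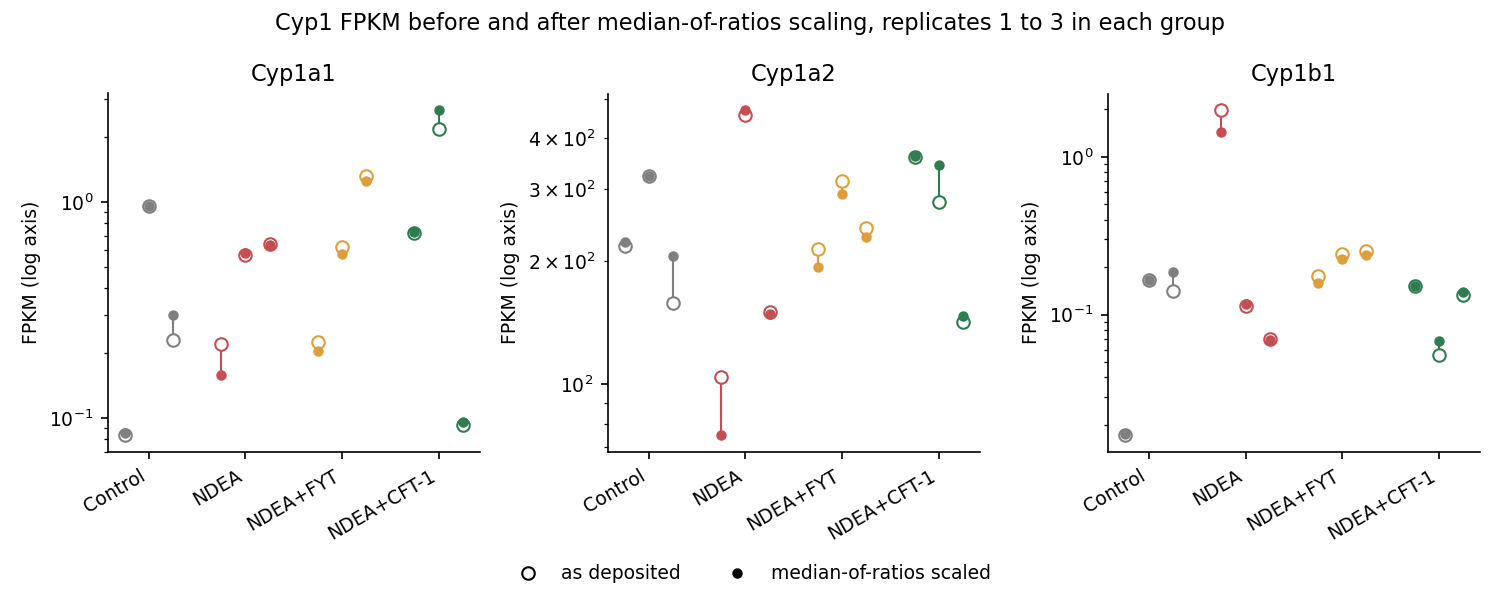
FPKM of the 3 Cyp1 genes (log axis) as deposited (open circles) and after median-of-ratios scaling (filled circles), joined by a line for each library, with replicates 1 to 3 from left to right in each group. Scaling lowered NDEA replicate 1 in every panel (Cyp1a2 from 104 to 74.9 FPKM, Cyp1b1 from 1.99 to 1.43 FPKM) and left it the highest Cyp1b1 library.

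The comparison within injected rats, 6 livers of tea drinkers against 3 of NDEA water drinkers, asks about tea with the injection held the same. Across genes, limma called 0 of 11854 (0%), with 725 at an unadjusted p under 0.05, and voom called 0. Over all 24718 IDs 0% were called as deposited, and 6.26% had an unadjusted p under 0.05, none of them a Cyp1 gene. After median-of-ratios scaling limma and voom each called 1 of these IDs, which was no Cyp1 gene. The difference was 0.25 for Cyp1a1 (-0.49 to 0.99), 0.36 for Cyp1a2 (-0.58 to 1.30) and -0.39 for Cyp1b1 (-0.99 to 0.21), with adjusted p-values of 0.810, 0.822 and 0.679 by limma. The exact permutation test (84 assignments, smallest possible p 0.0119) gave p = 0.548, 0.488 and 0.310.

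Only the sign for Cyp1a1 was independent of NDEA replicate 1 here. Without it the difference was 0.12 for Cyp1a1, -0.08 for Cyp1a2 and 0.10 for Cyp1b1, each with an exact permutation p of at least 0.214 (28 assignments). For Cyp1a2 the opposite library mattered as much. Without NDEA replicate 2, which had the highest Cyp1a2 level, the difference rose to 0.98 with an unadjusted p of 0.0180 and an adjusted p of 0.356 by limma. For Cyp1a1, leaving out NDEA+CFT-1 replicate 2 reduced the difference to 0.05, and leaving out NDEA+CFT-1 replicate 3 raised it to 0.43. For Cyp1b1 the difference was -0.64 without NDEA replicate 3, with an unadjusted p of 0.0489 and an adjusted p of 0.402 by limma. No library overlap was broken for any of the 3 genes, against 1.89% of all IDs without overlap.

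**Figure D3:**
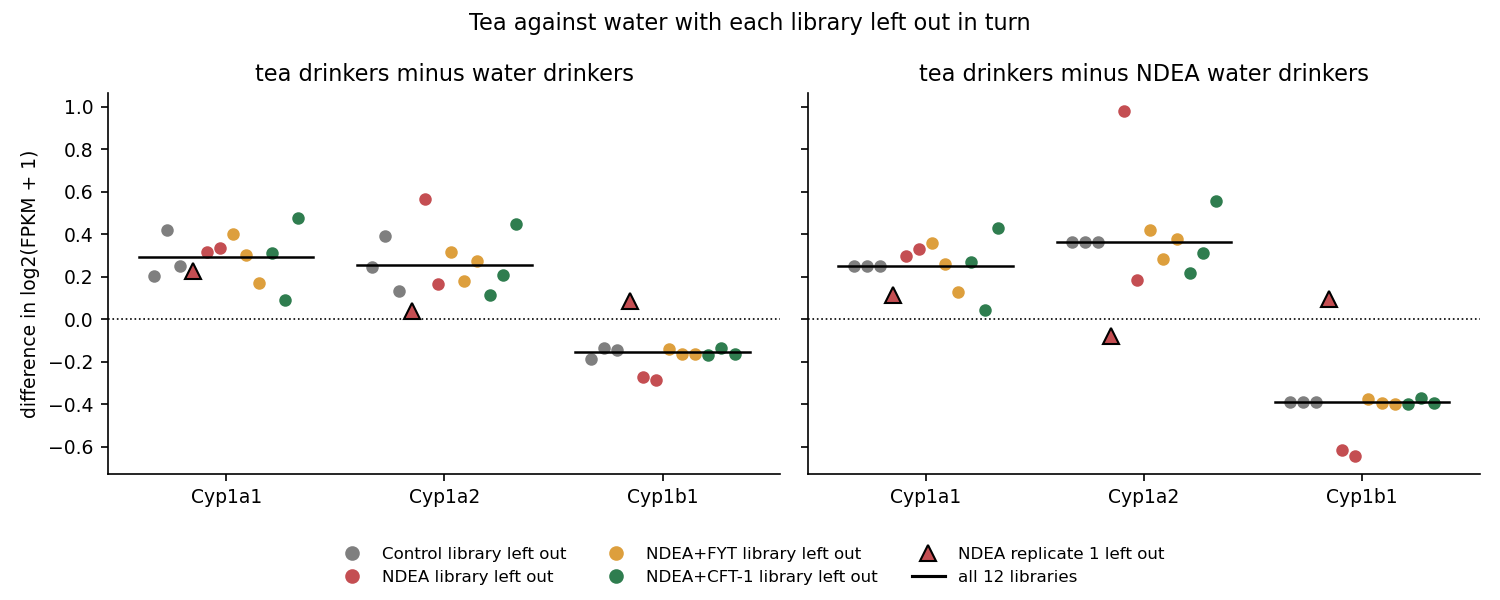
Difference between tea drinkers and water drinkers (left) or NDEA water drinkers (right) in log2(FPKM + 1) for each Cyp1 gene, as fitted by limma with each of the 12 libraries left out in turn. Points are coloured by the group of the library left out, triangles mark NDEA replicate 1, and bars show the fit of all libraries. Cyp1b1 lies above 0 only where NDEA replicate 1 is left out (0.09 on the left, 0.10 on the right), and Cyp1a2 spans -0.08 to 0.98 on the right.

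The teas were next taken 1 at a time against NDEA, 3 livers against 3, where the exact permutation test cannot go below p = 0.1. For NDEA+CFT-1 the differences were 0.31 for Cyp1a1 (-0.54 to 1.16), 0.33 for Cyp1a2 (-0.76 to 1.42) and -0.46 for Cyp1b1 (-1.15 to 0.23), with adjusted p-values of 0.744, 0.791 and 0.564 by limma. For NDEA+FYT they were 0.19 (-0.67 to 1.04), 0.39 (-0.69 to 1.48) and -0.32 (-1.01 to 0.37), with adjusted p-values of 1.00 each by limma. Both comparisons share the 3 NDEA libraries, so their like signs are not separate evidence. Limma called 0 of 11854 genes (0%) in each, with 1494 and 176 at an unadjusted p under 0.05, and voom called 0 in each. Over all IDs 0% were called, and 10.2% and 2.66% had an unadjusted p under 0.05, none of them a Cyp1 gene. Without NDEA replicate 1 the difference for Cyp1a1 was 0.18 with CFT-1 and 0.05 with FYT. For Cyp1a2 it was -0.11 and -0.05, and for Cyp1b1 it was 0.03 and 0.16. Without NDEA replicate 2 the difference for Cyp1a2 was 0.95 with CFT-1 (unadjusted p 0.0350, adjusted p 0.236 by limma) and 1.01 with FYT (unadjusted p 0.0263, adjusted p 0.832 by limma). For Cyp1a1 the sign turned to -0.09 with CFT-1 without NDEA+CFT-1 replicate 2 and to -0.06 with FYT without NDEA+FYT replicate 3. With NDEA replicate 1 left out, the NDEA+FYT livers lay above both remaining NDEA livers in Cyp1b1 (p = 0.1, exact permutation test, the smallest that 3 against 2 allows), as they did for 13.5% of all IDs. That difference of 0.16 had an interval of 0.02 to 0.31, with an unadjusted p of 0.0315 and an adjusted p of 0.986 by limma.

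Between the teas, CFT-1 minus FYT was 0.12 for Cyp1a1 (-0.73 to 0.98), -0.06 for Cyp1a2 (-1.15 to 1.02) and -0.14 for Cyp1b1 (-0.83 to 0.55), with adjusted p-values of 1.00, 0.987 and 1.00 by limma. Limma called 0 of 11854 genes (0%), with 642 at an unadjusted p under 0.05, voom called 0, and over all IDs 0% were called and 4.49% had an unadjusted p under 0.05. The sign for Cyp1a2 turned with the scaling, to 0.16 after median-of-ratios, and the sign for Cyp1a1 turned to -0.28 without NDEA+CFT-1 replicate 2 and to -0.10 without NDEA+FYT replicate 1. That of Cyp1a2 also turned, to 0.32 without NDEA+CFT-1 replicate 3 and to 0.09 without NDEA+FYT replicate 2. In Cyp1b1 all 3 NDEA+CFT-1 livers (0.0552 to 0.151 FPKM) lay below all 3 NDEA+FYT livers (0.175 to 0.252 FPKM), with p = 0.1 in the exact permutation test, the smallest that this design allows. The interval above takes its width from the spread of all groups, NDEA replicate 1 included, which is in neither tea group. Without that library the same difference of -0.14 had an interval of -0.27 to -0.0055, with an unadjusted p of 0.0428 and an adjusted p of 0.622 by limma, and with only the compared groups in the fit -0.25 to -0.02, with an unadjusted p of 0.0293 and an adjusted p of 0.416. The separation held after scaling, and 14.5% of all IDs showed the same separation in that direction. The groups were 20 fragments against 36 in sum, and Poisson intervals of single libraries overlapped.

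The injection itself was compared in water drinkers, NDEA minus Control. The differences were 0.09 for Cyp1a1 (-0.77 to 0.94), -0.21 for Cyp1a2 (-1.30 to 0.88) and 0.46 for Cyp1b1 (-0.23 to 1.15), with adjusted p-values of 0.963, 0.860 and 0.582 by limma. Limma called 0 of 11854 genes (0%), with 1031 at an unadjusted p under 0.05, and voom called 0. Over all IDs 1 was called as deposited (0.00405%) and 3 after scaling, none of them a Cyp1 gene, and 7.25% had an unadjusted p under 0.05. Without NDEA replicate 1 the difference was 0.22 for Cyp1a1, 0.23 for Cyp1a2 and -0.02 for Cyp1b1. For Cyp1a2 it was -0.83 without NDEA replicate 2 and 0.06 without Control replicate 2, and for Cyp1a1 it turned to -0.09 without Control replicate 1. For Cyp1b1 it was 0.72 without NDEA replicate 3, with an unadjusted p of 0.0488 and an adjusted p of 0.373 by limma. Against Control, the NDEA+FYT livers were higher in Cyp1b1 without overlap as deposited (p = 0.1, exact permutation test), as were 12.8% of all IDs in that direction, but overlapped after scaling (p = 0.3, exact permutation test).

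**Figure D4:**
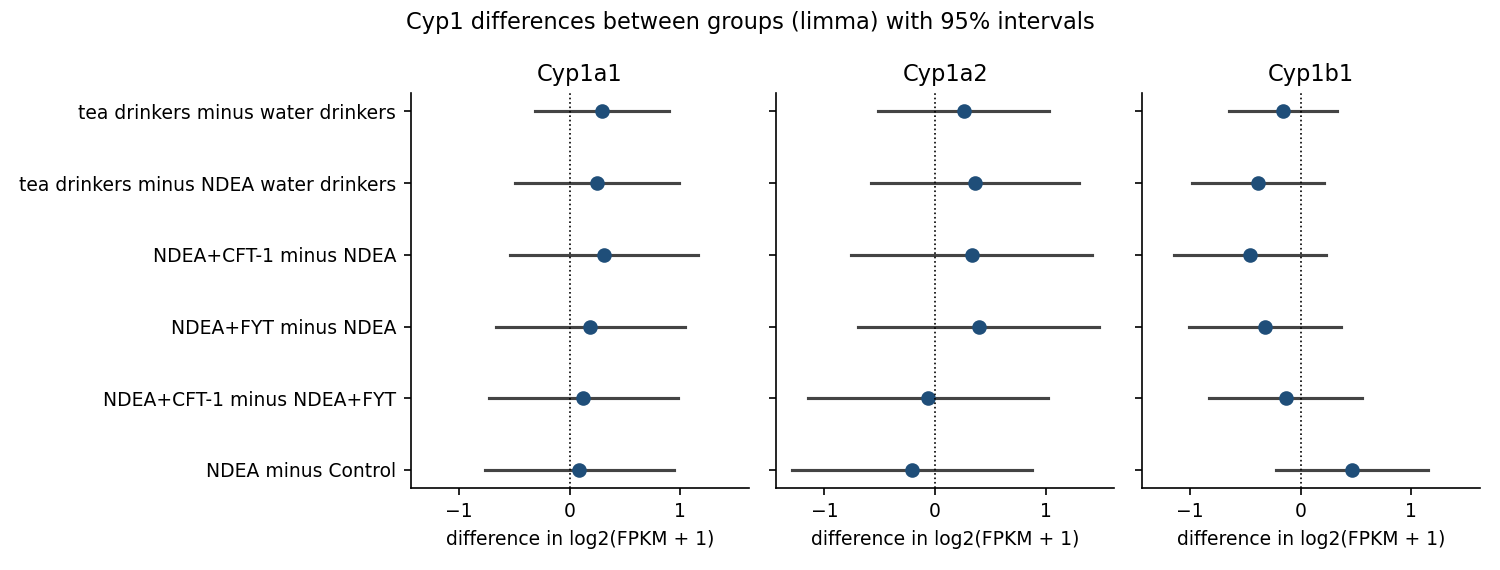
Differences in log2(FPKM + 1) between groups for each Cyp1 gene in the 6 comparisons, as points with 95% intervals from limma (all 12 libraries in 1 fit). All 18 intervals include 0, and within each comparison that of Cyp1a2 is the widest.

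The size of the differences for the low genes, and in places the sign, depended on how low values were treated. With a pseudocount of 1, a pseudocount of 0.1 and voom in turn, Cyp1b1 in tea minus water was -0.16, -0.15 and 0.15, and Cyp1a1 between the teas was 0.12, 0.03 and -0.11. The other comparisons named here kept their sign. Cyp1a1 in tea minus water was 0.29 with a pseudocount of 1, 0.60 with 0.1 and 0.72 with voom on the rebuilt fragments, and in NDEA minus Control it was 0.09, 0.43 and 0.78. Cyp1b1 in NDEA minus Control was 0.46, 1.11 and 1.49, in NDEA+CFT-1 minus NDEA -0.46, -1.02 and -1.10, in NDEA+FYT minus NDEA -0.32, -0.40 and -0.09, and between the teas -0.14, -0.62 and -1.01. All of these intervals included 0. Cyp1a2, with 3148 to 18341 fragments, was 0.26 in tea minus water under all 3 treatments.

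Cyp1a1 and Cyp1a2, the neighbouring genes, were also set against each other over the 12 libraries, as 1 of 3 pairs. All 3 pairs were taken in log2(FPKM) with no pseudocount. Pearson's r was 0.54 (permutation p = 0.0716, 0.215 adjusted over the 3 pairs) and Spearman's rho was 0.54 (permutation p = 0.0763, 0.229 adjusted). Without Control replicate 1 and NDEA+CFT-1 replicate 3, r was 0.54, and around the group means it was 0.55. These libraries were the lowest in Cyp1a1 and the farthest from its median on this scale. The highest, NDEA+CFT-1 replicate 2 (2.18 FPKM), was kept. After scaling r was 0.58 (permutation p = 0.0456, 0.137 adjusted) and rho 0.62 (permutation p = 0.0348, 0.104 adjusted). The relation did not pass adjustment on either scale. Both genes were read from the same libraries and share the depth of each, and fragments of Cyp1a1 numbered only 0.0518% to 1.06% of those of Cyp1a2, so a small share of reads placed on the wrong one of these related genes would weigh on Cyp1a1, and this was not tested.

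**Figure D5:**
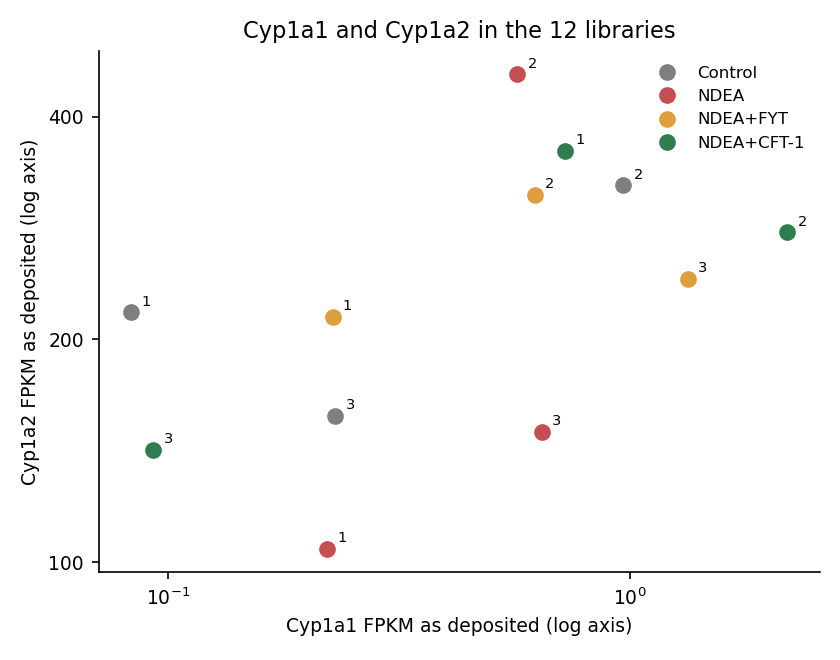
Cyp1a1 (horizontal) against Cyp1a2 (vertical) in FPKM as deposited, both on log axes, for the 12 libraries coloured by group and numbered by replicate. The 5 libraries with the least Cyp1a1 (0.0833 to 0.230 FPKM) hold 104 to 218 FPKM of Cyp1a2, the other 7 hold 150 to 456 FPKM, and each of the 4 groups has libraries in both sets.

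No relation was resolved for the other pairs. For Cyp1a1 and Cyp1b1 r was 0.06 (permutation p = 0.854, also 0.854 adjusted) and rho was 0.08 (permutation p = 0.801, also 0.801 adjusted). Their r was -0.51 without the 2 libraries lowest in Cyp1a1 and 0.33 without NDEA replicate 1 alone. For Cyp1a2 and Cyp1b1 r was -0.32 (permutation p = 0.319, 0.479 adjusted) and rho was -0.09 (permutation p = 0.782, 0.801 adjusted). Without NDEA replicates 1 and 2, the libraries farthest out in Cyp1a2, r was 0.21, and without NDEA replicate 1 alone it was 0.17. After scaling r was 0.01 for Cyp1a1 and Cyp1b1 (permutation p = 0.979). For Cyp1a2 and Cyp1b1 it was then -0.44 (permutation p = 0.142, 0.213 adjusted).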

How the data were processed

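Liver RNA of 12 rats, 3 in each of 4 groups, was analysed. The authors sequenced 150-bp read pairs, used Trimmomatic for trimming and HISAT2 for mapping (Rnor_6.0 and HTSeq 0.6.1 per the submitters' processing notes), removed PCR duplicates, counted uniquely mapped reads and deposited FPKM; the annotation release is not given in the sources used here. Whether the libraries keep strand was not given either. The members, lists and tests were chosen with earlier results of these data known.

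Whole fragments were rebuilt from the FPKM steps for 100% of the 24718 IDs above 0, each within 0.0026 fragments of a whole number, and summed to at least 99.9992% of the implied totals. Limma 3.58.1 in R 4.3.3 (trend, all groups) was fitted to log2(FPKM + 1) for 11854 genes averaging 1 FPKM or more, with Benjamini-Hochberg adjustment and a threshold of 0.05. Members under that filter were read from the fit without it. The steps were tested on simulated data. Exact permutation tests over libraries were two-sided, correlations used 100000 permutations, and plots used matplotlib 3.10.9. P-values of group differences set them against the spread between these livers. In limma that spread is pooled over the groups in the fit and drawn toward that of other genes. The 3 Cyp1 genes were named whatever their result. AhR pathway genes, cell type markers and the genes most like each member were also to be named by rule, but the reference pairs none of its 47357 genes with an Ensembl ID, so they were not analysed here. Alternatives were another pseudocount, other filters, scalings, weights and samples in the fit, a replicate block and, added after seeing the data, voom, no pseudocount and a permutation test without NDEA replicate 1.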

Additional observations from a re-analysis of the deposited data

Results flagged for a closer look

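Cyp1b1 in NDEA replicate 1 was far from the other 5 libraries of water drinkers. It was 1.99 FPKM as deposited and 1.43 FPKM after median-of-ratios scaling, against next highest values of 0.165 and 0.185 FPKM. The gap to the nearest library was 0.925 and 0.881 of the range of the 6 libraries, past the 95% critical value of Dixon's test for 6 libraries. For normal values from 1 population, chance alone passes that value in about 1 of 20 groups. Each set here pools 2 groups of livers, and whether that rate holds for them was not tested. In all, 12 sets of 6 libraries were examined (3 genes, 2 drinks and 2 scales of the same data). NDEA replicate 1 also had the lowest Cyp1a2 level of the series (104 FPKM), the highest size factor (1.39) and the lowest depth (15495351 fragments). The part of these in its Cyp1b1 value was not tested. No other Cyp1 value of tea or water drinkers passed the limit.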

How the results depend on the processing

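No Cyp1 gene passed an adjusted p of 0.05 in any of 405 limma or voom fits (smallest 0.236), and 8 had an unadjusted p under 0.05. These fits share libraries, and 0 of the main fits had an unadjusted p under 0.05. Over all IDs 2.66% to 10.2% had one in the main fits of the 6 comparisons. Of 171 values under other settings 159 kept direction and side of the threshold, as did 199 of 216 with a library left out. With library weights Cyp1b1 turned to 0.081 in tea minus water, 0.046 in tea minus NDEA and 0.098 in FYT minus NDEA, Cyp1a1 to -0.028 in CFT-1 minus NDEA and -0.058 between the teas, and Cyp1a2 to 0.0088 between the teas (0.16 with median-of-ratios, 0.15 with scaled voom). The weights also reduced Cyp1a1 to 0.13 in tea minus water and 0.0013 in tea minus NDEA. With those weights limma called 1 gene in tea minus water, 19 in CFT-1 minus NDEA and 1 between the teas, and with no filter 1 in NDEA minus Control. With scaling and no filter together, chosen after seeing the data, it called 1 in tea minus water, 1 in tea minus NDEA (1 also by voom) and 3 in NDEA minus Control, none of them a Cyp1 gene. With voom Cyp1b1 was 0.15 in tea minus water (0.12 scaled, 0.15 by permutation with no pseudocount) and Cyp1a1 -0.11 between the teas. Quantile normalization turned Cyp1a1 to -0.025 in NDEA minus Control. The causes were not tested.

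Without 1 library in turn, tea minus water ran from 0.09 to 0.48 for Cyp1a1, 0.04 to 0.57 for Cyp1a2 and -0.28 to 0.086 for Cyp1b1. Tea minus NDEA ran from 0.046 to 0.43, -0.078 to 0.98 and -0.64 to 0.096. CFT-1 minus NDEA ran from -0.095 to 0.68, -0.11 to 0.95 and -0.71 to 0.028, and FYT minus NDEA from -0.055 to 0.41, -0.046 to 1.01 and -0.58 to 0.16. CFT-1 minus FYT ran from -0.28 to 0.49, -0.35 to 0.32 and -0.16 to -0.10, and NDEA minus Control from -0.086 to 0.34, -0.83 to 0.23 and -0.020 to 0.72. Signs of Cyp1b1 and Cyp1a2 against NDEA, and of both in NDEA minus Control, turned without NDEA replicate 1. In the exact permutation test without that library, tea minus water was 0.084 for Cyp1b1, and tea minus NDEA was -0.078 for Cyp1a2 and 0.096 for Cyp1b1. Other turns were Cyp1a1 in CFT-1 minus NDEA without NDEA+CFT-1 replicate 2 (-0.095), in FYT minus NDEA without NDEA+FYT replicate 3 (-0.055), between the teas without NDEA+FYT replicate 1 (-0.098) or NDEA+CFT-1 replicate 2 (-0.28) and in NDEA minus Control without Control replicate 1 (-0.086), and Cyp1a2 between the teas without NDEA+FYT replicate 2 (0.091) or NDEA+CFT-1 replicate 3 (0.32) and in NDEA minus Control without Control replicate 2 (0.056). Genes called ran from 0 to 1 in FYT minus NDEA and between the teas (1 without NDEA+FYT replicate 3) and from 0 to 2 in NDEA minus Control (2 without Control replicate 2).

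Replicate numbers did not pair the livers over genes as a whole: same-numbered deviations correlated at -0.47 to 0.28 (mean 0.00). Other-numbered ones correlated at -0.25 to 0.39 (mean 0.00). With a replicate block limma called 0 genes in each comparison, and tea minus water was 0.26 for Cyp1a2 with an adjusted p of 1.00. The block left that difference unchanged. Its standard error went from 0.352 to 0.281 and its unadjusted p by limma from 0.480 to 0.384. A fit of only the groups compared adds nothing to tea minus water, which uses all groups, and likeness to other genes was not run. Cyp1b1 had 1 to 16 fragments in 11 libraries. Counting error within groups was 18.4% to 40.8% for Cyp1b1, 13.1% to 21.0% for Cyp1a1 and 0.923% to 1.03% for Cyp1a2. The standard error of Cyp1b1 in tea minus water went from 0.219 to 0.043 without NDEA replicate 1. What limits each gene was not tested.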
